A study of Mus musculus with 8 samples.

Results

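The genes described here encode the NF-kB transcription factor subunits and the inhibitors that restrain them. They were the 10 rows of the gene table whose symbol was Nfkb1, Nfkb2, Rela, Relb, Rel, Nfkbia, Nfkbib, Nfkbie, Tnfaip3 or Bcl3, out of 35072 genes in all. Each symbol had 1 row, and all 10 passed the filter on low counts, as did 13299 genes in total. RNA was sequenced from wildtype mouse CD8 T cells of spleen and lymph nodes that were isolated as naive cells, activated for 18 h through CD3 and CD28 in the presence of IL-12, and then cultured for 24 h with formate or vehicle. The formate group received 2 mM formate (n = 4 libraries) and the PBS group received PBS (n = 4 libraries). Both groups therefore carried the same activation and cytokine, and no unstimulated cells were analysed here. The comparison asks how formate, a one-carbon metabolite, changes transcript levels in cells already activated.

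NF-kB is a family of dimeric transcription factors that share a DNA-binding Rel homology domain. In resting T cells the dimers are held in the cytoplasm by IkB proteins. Ligation of the antigen receptor and CD28 activates the IKK kinase complex, IKK marks the IkB proteins for degradation, and the freed dimers enter the nucleus. Among the genes that they switch on are those of the inhibitors, so that the pathway limits its own output. In CD8 T cells the pathway supports cytokine production, survival and proliferation after activation. Its activity is set mainly by the location and stability of proteins, which transcript counts do not measure.

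The upstream sequences of 4 of the genes are shown because several members are known targets of the factor they encode or restrain. Of the 10 genes, 8 had an entry among the RefSeq start sites (GRCm38.p6), with 11 start sites between them; Nfkb1 and Relb had none. The kappaB consensus, the sequence that NF-kB dimers bind, was searched on both strands in the 250 bases before each start site, and overlapping matches were kept. It was found at 7 of these 11 start sites and in 5 of the 8 genes (Nfkb2, Rel, Nfkbia, Nfkbie and Tnfaip3). Of all 32851 start sites 7.25% held it, and of all 27025 genes 8.23%. Among genes that passed the filter on low counts, 8.7% of 12213 start sites and 10.4% of 9573 genes held it. Capitals mark the bases of a match; sequences run 5′ to 3′ on the gene's strand, and the 3 long ones end just before the first base of the gene. For Nfkb2, whose annotated span in GENCODE begins further upstream, only the matches before its first start site and their flanks are shown. The windows of its other start sites, which begin at chr19:46305445 and chr19:46305680, each held 1 match that is not shown.
Nfkbia, chr12:55492648-55492897, minus strand: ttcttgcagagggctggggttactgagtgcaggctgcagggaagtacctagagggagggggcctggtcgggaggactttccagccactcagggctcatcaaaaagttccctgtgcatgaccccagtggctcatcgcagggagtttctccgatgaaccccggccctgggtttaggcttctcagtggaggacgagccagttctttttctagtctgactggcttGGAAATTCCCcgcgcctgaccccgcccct
Rel, chr11:23770971-23771219, minus strand: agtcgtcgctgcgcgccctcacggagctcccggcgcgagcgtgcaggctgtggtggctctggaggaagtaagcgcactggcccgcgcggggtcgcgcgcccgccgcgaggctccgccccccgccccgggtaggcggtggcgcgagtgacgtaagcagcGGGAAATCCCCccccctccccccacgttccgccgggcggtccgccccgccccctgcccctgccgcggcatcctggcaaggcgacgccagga
Bcl3, chr7:19822771-19823005, minus strand: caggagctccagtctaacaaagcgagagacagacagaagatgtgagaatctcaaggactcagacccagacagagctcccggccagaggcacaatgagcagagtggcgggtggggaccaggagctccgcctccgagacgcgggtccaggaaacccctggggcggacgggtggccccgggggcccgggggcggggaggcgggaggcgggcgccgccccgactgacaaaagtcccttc
Nfkb2, first match, chr19:46304689-46304718, plus strand: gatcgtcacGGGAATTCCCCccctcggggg
Nfkb2, second match, chr19:46304707-46304736, plus strand: ccccctcggggggccgaaaGGGGCTTTCCc
The run of capitals in Rel and the first one in Nfkb2 each hold 2 overlapping matches. The match in Nfkbia began 29 bases before the start site. No match stood in the windows of Bcl3, Rela or Nfkbib.

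The deposited table held estimated counts, with library totals between 29361986 and 38010357 with formate and between 30275374 and 41393093 with PBS. Values below are CPM, counts scaled to a common library total, after TMM normalisation, and library n of one group carries the title code next to that of library n of the other: 11 and 10, 14 and 13, 2 and 1, 8 and 7. No label states that neighbouring codes belong together. The first principal component (51.2% of the variance) set codes 1 to 8 apart from codes 10 to 14. T cell identity genes were abundant in every library: the 9 of 10 listed genes found in the table, Cd8a and Cd3e among them, summed to 2504 to 2646 CPM with formate and 2455 to 2880 CPM with PBS. The 8 B cell genes summed to 14.8 to 27.2 CPM with formate and 14.0 to 23.6 CPM with PBS, and the 4 CD4 T cell genes to 12.8 to 22.0 and 12.8 to 20.5 CPM. The 10 myeloid and dendritic genes summed to 1.56 to 3.20 CPM with formate and 1.31 to 3.03 CPM with PBS. The 6 NK cell genes summed to 1.48 to 2.49 CPM with formate and 0.994 to 2.08 CPM with PBS, higher with formate in 4 of 4 pairs. Most of that sum was Klre1, with 2.09, 1.72, 1.04 and 1.58 CPM with formate and 1.62, 0.776, 0.946 and 1.15 CPM with PBS. Klrb1c was at 0 in 4 of 4 formate libraries and 3 of 4 PBS libraries. Ncr1 was at 0 in 2 formate and 3 PBS libraries, Klra8 in 3 and 2, and Klra4 in 1 and 1. Tyrobp was above 0 in every library, at no more than 0.390 CPM. The B cell and the myeloid and dendritic sums were each higher in 3 of 4 pairs, the CD4 T cell sum in 2. The part of such cells in the results was not tested, and in bulk RNA fewer cells of a type and less RNA per cell cannot be told apart.

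Most NF-kB genes were slightly lower with formate, and the evidence for this depends on treating neighbouring title codes as pairs. In the comparison that ignores the codes (the unpaired fit), 0 of the 10 genes passed an adjusted p of 0.05 in edgeR's quasi-likelihood test, where 0.00752% of all tested genes did. At an unadjusted p under 0.05 the count was 1 of 10 (4.77% of all genes), and DESeq2 also called 0 of 10 (0.158%). In the second fit, with the 4 pairs as a block, 6 of 10 genes fell and 0 rose, where 7.52% of all tested genes fell and 5.35% rose. The 6 were the subunit genes Nfkb1, Nfkb2 and Rela and the inhibitor and regulator genes Nfkbia, Nfkbib and Bcl3. The 10 genes were chosen with earlier results of these data known, so these counts are not a test of the group. Of the 10 genes, 8 were lower in 4 of 4 pairs (19.5% of all genes), and 0 were higher in 4 of 4 (16% of all genes); Rel was lower in 1 pair and Relb in 2. DESeq2 with the block called the same 6 genes lower, where 1082 of 13299 tested genes were lower and 492 higher. The median log2 change over the 10 genes was -0.16 in the block fit and -0.15 in the unpaired fit, beside -0.003 and -0.008 over all tested genes. The decreases were small, between 9.45% for Rela and 14.8% for Bcl3 in the block fit.

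**Figure D1:**
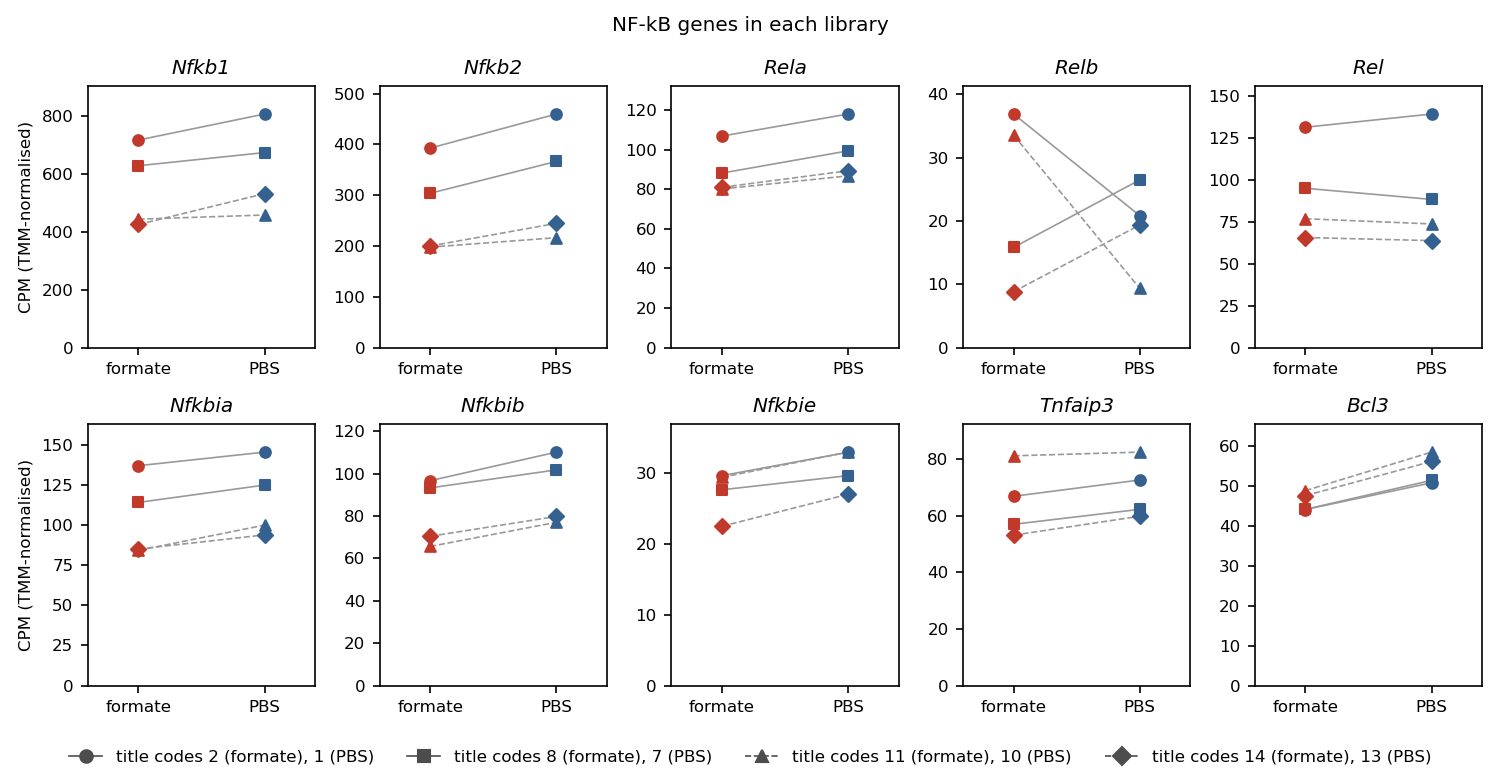
Level of each NF-kB gene (CPM, TMM-normalised, axis from 0) in the 4 formate and 4 PBS libraries; lines join neighbouring title codes, solid for codes 1 to 8 and dashed for codes 10 to 14. Most lines are lower at the formate end, Bcl3 has group ranges that do not overlap, and Relb scatters with no common direction.

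Among the subunits, Nfkb1 encodes p105, the precursor of the p50 DNA-binding subunit. The gene (ENSMUSG00000028163, chr3:135584655-135691547, GRCm38) had 443, 425, 717 and 628 CPM in formate libraries 1 to 4, against 458, 531, 806 and 673 CPM in PBS libraries 1 to 4. Each formate library lay below its neighbour, while the groups overlapped widely. The block fit gave a log2 change of -0.16 (SE 0.05, edgeR adjusted p = 0.0498), and the unpaired fit gave -0.16 (SE 0.22, adjusted p = 0.998). The block call was thus only just inside the threshold.

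Nfkb2 encodes p100, which both inhibits RelB dimers and is processed to the p52 subunit of the non-canonical arm. It (ENSMUSG00000025225, chr19:46304320-46312385) had 198, 200, 392.5 and 304 CPM with formate and 216, 244, 460 and 366 CPM with PBS. The groups overlapped, and the formate member of each pair was the lower one. The log2 change was -0.23 in both fits, with an SE of 0.05 and an edgeR adjusted p of 0.00578 in the block fit and an SE of 0.30 and an adjusted p of 0.998 in the unpaired fit. The last 299 bases of the gene overlap Psd on the opposite strand, which held 619 to 1503 counts per library. The strand setting of the counting is not given. Estimated counts of Nfkb2 differed from a whole number by more than 0.001 counts in 0 of 8 libraries. How reads from the shared bases were assigned was not tested.

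Rela encodes p65, the main transactivating partner of p50. It (ENSMUSG00000024927, chr19:5637483-5648130) had 80.2, 81.1, 107 and 88.2 CPM with formate and 86.8, 89.4, 118 and 99.5 CPM with PBS. Within pairs the log2 ratio kept to a narrow range, from -0.17 to -0.11 (with 0.5 CPM added to each value). The block fit gave -0.14 (SE 0.04, edgeR adjusted p = 0.0421), while the group ranges overlapped.

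Rel, which encodes c-Rel, the lymphocyte subunit linked to IL-2 induction and T cell activation, did not pass in either fit. The gene (ENSMUSG00000020275, chr11:23736847-23770970) had 76.9, 65.6, 132 and 95.1 CPM with formate and 73.8, 63.8, 139 and 88.4 CPM with PBS. It was higher with formate in 3 of 4 pairs. The block fit gave a log2 change of 0.03 (SE 0.05, edgeR adjusted p = 0.741), with a 95% normal interval of -0.06 to 0.12. Its promoter window held the kappaB consensus, as printed above. Whether such a match goes with the change of a gene was not tested. Whether the change of Rel differs from those of the other subunits was not tested.

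Relb encodes the subunit that partners p52. Its values (ENSMUSG00000002983, chr7:19606217-19629438) were 33.5, 8.82, 36.9 and 15.8 CPM with formate and 9.34, 19.4, 20.8 and 26.5 CPM with PBS. The highest library was 4.18 times the lowest, the widest spread of the 10 genes, and both extremes were formate libraries. Pair log2 ratios ran from -1.09 to 1.79, and the block fit gave 0.21 (SE 0.68, edgeR adjusted p = 0.882). Estimated counts of Relb differed from a whole number by more than 0.001 counts in 8 of 8 libraries, so part of its reads was assigned by estimate between it and another gene; the same held for Nfkb1 and Rel. Without the low-count filter the block fit gave Relb nearly the same change, 0.20, with an SE of 0.08 (unadjusted p = 0.00992, edgeR adjusted p = 0.0844). Its SE therefore depended on the filter, and neither fit called it.

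**Figure D2:**
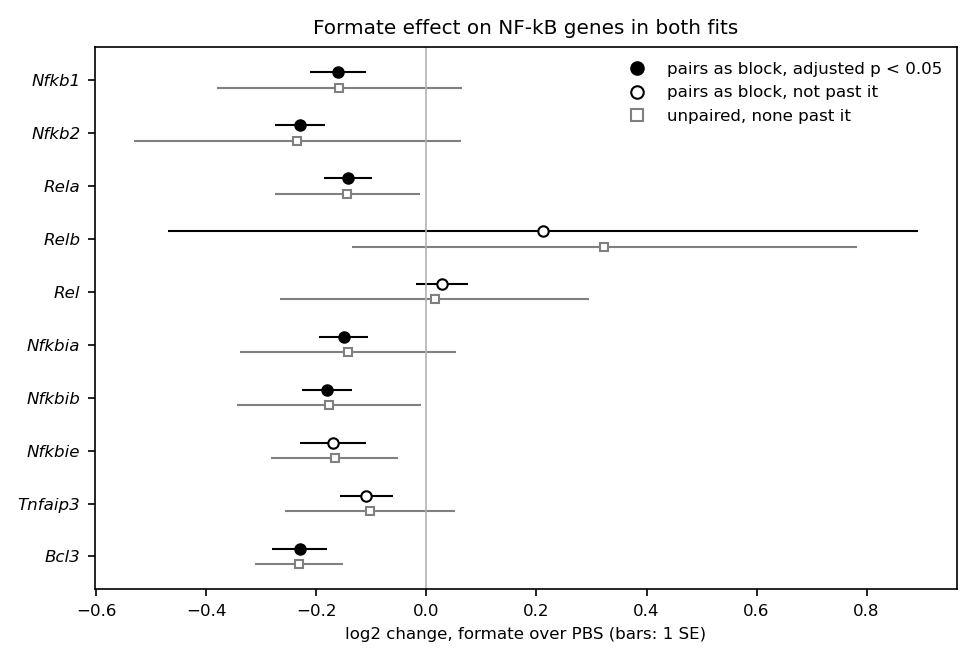
Log2 change with formate over PBS for each NF-kB gene, with 1 SE, in the fit with title-code pairs as a block (circles, filled where the edgeR adjusted p was under 0.05) and in the unpaired fit (squares). The estimates nearly coincide except for Relb, and the error bars of the unpaired fit are wider for 9 of the 10 genes; Relb is the exception.

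Of the 5 inhibitor and regulator genes 3 fell in the block fit. Nfkbia encodes IkB-alpha, the inhibitor whose rapid resynthesis is the classic negative feedback of the pathway. It (ENSMUSG00000021025, chr12:55489410-55492647) had 84.2, 85.1, 137 and 114 CPM with formate and 100.0, 93.9, 145 and 125 CPM with PBS. The groups overlapped and every pair was lower with formate. The block fit gave -0.15 (SE 0.05, edgeR adjusted p = 0.0385).

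Nfkbib encodes IkB-beta, an inhibitor that is degraded and restored more slowly. Its values (ENSMUSG00000030595, chr7:28758251-28767512) were 65.6, 70.4, 96.6 and 93.3 CPM with formate and 77.0, 79.8, 110 and 102 CPM with PBS. It was lower in all 4 pairs, with a block log2 change of -0.18 (SE 0.04, edgeR adjusted p = 0.0175). The gene shares 778 bases with Sirt2 on the opposite strand, which held 1777 to 2885 counts per library. Estimated counts of Nfkbib differed from a whole number by more than 0.001 counts in 2 of 8 libraries. Which gene shared those reads is not given, and the division of reads with Sirt2 was not tested.

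Nfkbie encodes IkB-epsilon, an inducible inhibitor. It (ENSMUSG00000023947, chr17:45555703-45563169) had 29.4, 22.5, 29.6 and 27.6 CPM with formate and 32.9, 27.0, 32.9 and 29.6 CPM with PBS. Each formate library was below its neighbour. The change of -0.17 (SE 0.06) did not pass in the block fit (edgeR adjusted p = 0.0727).

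Tnfaip3 encodes A20, the ubiquitin-editing enzyme that terminates signalling to IKK. Its values (ENSMUSG00000019850, chr10:19000910-19015657) were 81.1, 53.1, 66.9 and 57.0 CPM with formate and 82.4, 59.8, 72.6 and 62.2 CPM with PBS. The pair of codes 11 and 10 was almost level, with a log2 ratio of -0.02, and the lowest pair was at -0.17. The block fit gave -0.11 (SE 0.05, edgeR adjusted p = 0.146), which did not pass.

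Bcl3 encodes an atypical nuclear IkB that binds p50 and p52 homodimers and can act as a coactivator. It was the only one of the 10 genes whose groups did not overlap, which 1.85% of all tested genes did in the same direction. The gene (ENSMUSG00000053175, chr7:19808462-19822770) had 48.9, 47.7, 44.2 and 44.2 CPM with formate, all below the 58.6, 56.2, 50.9 and 51.5 CPM with PBS. Group means were 46.2 ± 2.42 CPM with formate and 54.3 ± 3.72 CPM with PBS (SD, n = 4 each). The log2 change was -0.23 in both fits, with an SE of 0.05 and an edgeR adjusted p of 0.00892 in the block fit. In the unpaired fit the SE was 0.08, the unadjusted p 0.0175 and the adjusted p 0.998. The 4 pair ratios lay between -0.26 and -0.20 on the log2 scale, a narrower span than the -0.32 to -0.05 of Nfkb1. Its window upstream of the start site, printed above, held no match to the kappaB consensus. Annotated antisense genes overlap Bcl3 and are not analysed here.

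**Figure D3:**
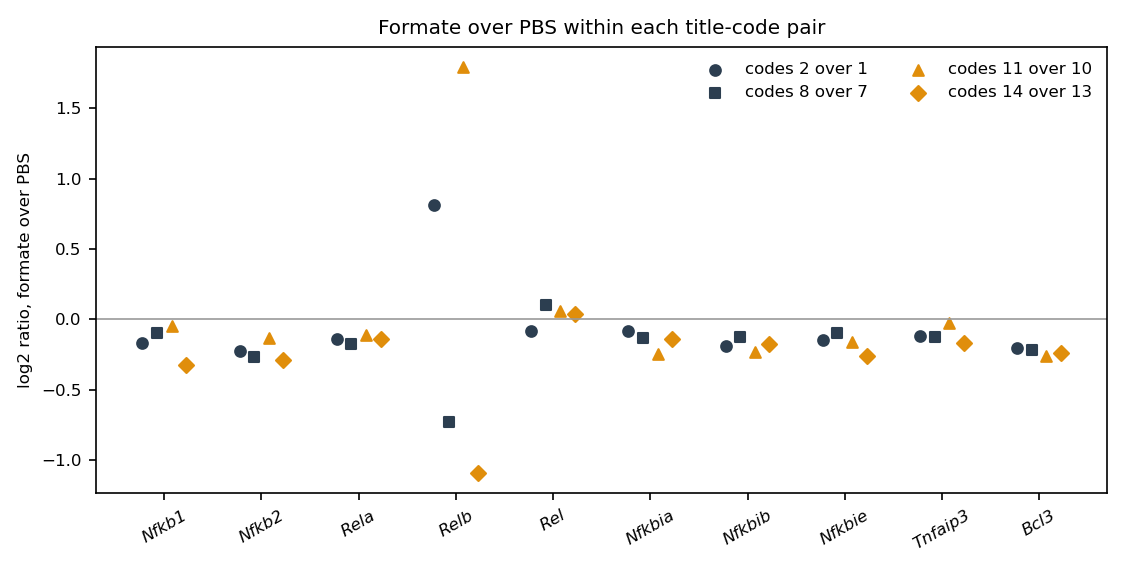
Log2 ratio of formate over PBS (0.5 CPM added) within each title-code pair, with codes 1 to 8 in dark blue and codes 10 to 14 in orange. Of the 10 genes, 8 have all 4 points below 0, Bcl3 and Rela have the narrowest spans, and Relb runs from -1.09 to 1.79.

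The 6 genes that fell had negative log2 changes in both ranges of title codes. They were called in the fit of all 8 libraries, and each range has n = 2 per group. The split therefore cannot show that the effects are alike. Fitted within codes 1 to 8 alone (n = 2 each), the log2 changes were -0.14 for Nfkb1, -0.25 for Nfkb2, -0.16 for Rela, -0.11 for Nfkbia, -0.16 for Nfkbib and -0.22 for Bcl3. Within codes 10 to 14 alone they were -0.17, -0.20, -0.11, -0.18, -0.19 and -0.23 in the same order. At an unadjusted p under 0.05 the count was 0 of 10 within each range, where 4.55% of all genes passed in codes 1 to 8 and 4.4% in codes 10 to 14, and none passed the adjusted threshold, where edgeR called 0 of all tested genes. The difference between the ranges, tested as an edgeR interaction, passed for 0 of the 10 genes (adjusted p from 0.955 to 0.991, smallest unadjusted p 0.338) and for 0.0677% of all genes.

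For 7 of the 10 genes the ratio of mean levels between the code ranges was larger than that between formate and PBS, in either direction. The same count was not taken over all tested genes, so it is not read as particular to these genes. Nfkb2 averaged 381 CPM in codes 1 to 8 and 215 CPM in codes 10 to 14, a ratio of 1.77. Rel had a ratio of 1.62, Nfkb1 of 1.52, Nfkbia of 1.44 and Nfkbib of 1.37. For these 5 genes every library of codes 1 to 8 lay above every library of codes 10 to 14, as for 17.9% of all tested genes. Relb and Rela had ratios of 1.41 and 1.22, and Bcl3 and Tnfaip3 of 0.902 and 0.935, and all 4 overlapped. No label says what distinguishes the ranges, so these values describe the libraries and are not tested.

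**Figure D4:**
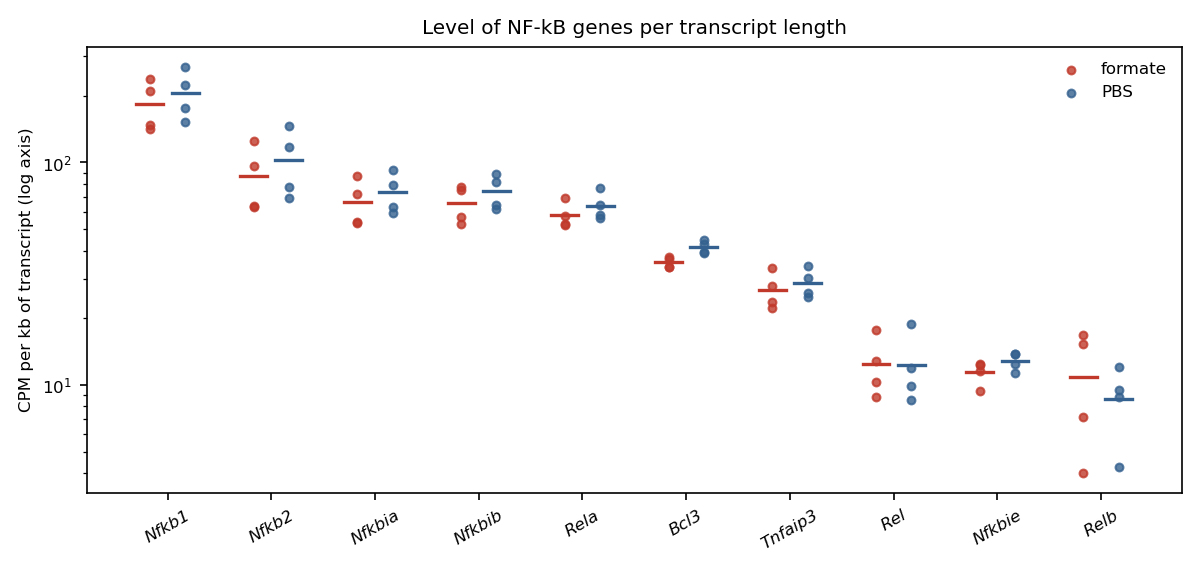
Level of each NF-kB gene per kb of transcript (CPM per kb, log axis) in 4 formate and 4 PBS libraries, with the mean as a bar. Nfkb1 lies highest, with means of 184 with formate and 205 with PBS, and Rel, Nfkbie and Relb share the lowest place.

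On a per-length scale (CPM divided by the median length of the annotated coding transcripts), Nfkb1 was the most abundant subunit transcript, with 184 ± 47.3 CPM per kb with formate and 205 ± 51.4 with PBS (SD, n = 4 each). Nfkb2 followed with 87.2 ± 29.8 and 103 ± 35.9 CPM per kb. Nfkbia had 66.6 ± 16.1 and 73.5 ± 15.05, Nfkbib 65.6 ± 12.6 and 74.2 ± 13.1, and Rela 57.9 ± 8.08 and 64.0 ± 9.22 CPM per kb. The library ranges of Nfkb2, the 2 inhibitors and Rela overlapped from each to the next. Within libraries, however, Nfkb2 lay above the other 3 in 8 of 8 and Rela below them in 8 of 8, while Nfkbia was above Nfkbib in 4 of 8. Bcl3 (35.5 ± 1.86 and 41.7 ± 2.86) and Tnfaip3 (26.7 ± 5.18 and 28.7 ± 4.30) stood apart below them. Rel (12.4 ± 3.86 and 12.2 ± 4.50), Nfkbie (11.4 ± 1.39 and 12.8 ± 1.20) and Relb (10.8 ± 6.18 and 8.63 ± 3.24) were lowest, and in both groups neighbours among these 3 overlapped. The scale depends on which transcript lengths the cells use, which the table does not give.

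Genes whose pattern over the 8 libraries was most like each member were taken by Pearson correlation of log2 CPM over all 8 libraries, among 9162 genes that averaged 5 CPM or more and had a symbol other than a Gm or Rik name. The 3 highest are named in that order, with a correlation of 0.885 to 0.997 once each code range's mean is removed (n = 8 libraries, a description only); the values given are these, and they did not choose the genes. For Nfkb2 the 3 were Itpkc (0.997), Icam1 (0.970) and Senp1 (0.971), and for Nfkb1 they were Ibtk (0.974), Senp1 (0.963) and Tacc1 (0.967). Icam1, an adhesion receptor gene, is on the list of NF-kB targets used below. Nfkbib was most like Grk2 (0.984), Gadd45b (0.950) and Ipo11 (0.953), and Nfkbie Cyld (0.968), Stat4 (0.962) and Foxo1 (0.977). Cyld encodes a deubiquitinase that restrains NF-kB signalling. Nfkbia was most like Pak6 (0.964), Asb1 (0.957) and Il2rg (0.950), and Bcl3 Sec22c (0.974), Tfg (0.977) and Alkbh5 (0.958). Rela was most like Lasp1 (0.987), Tgfb1 (0.983) and Trim8 (0.980), and Rel Ubash3b (0.977), St3gal1 (0.980) and Jak2 (0.953). Tnfaip3 was most like Rab6b (0.991), Swap70 (0.960) and Cdkn1a (0.960), and Relb Eogt (0.960), Wasl (0.948) and Akap11 (0.885).

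In the block fit most genes of each of the 6 other pathway lists did not pass. Over the lists together, those that did lay in both directions, while the IKK list held only rises and the antigen receptor list only falls. In the unpaired fit 0 genes of these lists passed. The counts that follow are from the block fit, where 7.52% of all tested genes fell and 5.35% rose. No direction is read from the lists with 1 to 3 calls. Among 18 other IkB proteins and regulators 3 rose, 2 fell and 13 did not pass, with a median log2 change of -0.05. The linear-ubiquitin deubiquitinase gene Otulin fell by 0.30 on the log2 scale (134 ± 43.9 CPM with formate and 166 ± 57.7 CPM with PBS; SD, n = 4 each; edgeR adjusted p = 0.00249). Nfkbiz, which encodes the nuclear coactivator IkB-zeta, rose by 0.29 (21.8 ± 1.22 CPM with formate and 17.8 ± 1.09 CPM with PBS, adjusted p = 0.00966). Its groups did not overlap, as for 2.44% of all genes in that direction. Bcl3 and Nfkbiz, both atypical nuclear IkB genes, therefore differed in direction. Rnf11, which encodes a partner of A20, rose by 0.29, and Tnip3, which encodes an A20-binding inhibitor, rose by 0.35 (both edgeR adjusted p = 0.0101).

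Of 13 IKK subunit and upstream kinase genes 2 rose, 11 missed the threshold and 0 fell, with a median of 0.003. Those were Map3k8, the kinase that p105 holds inactive (0.25, SE 0.06, edgeR adjusted p = 0.0138), and Ikbke, an IKK-related kinase (0.19, SE 0.06, adjusted p = 0.0358). This list had 0 calls without codes 10 and 11, without 13 and 14 or without 7 and 8, and 1 without 1 and 2. Over all tested genes, 556 of 13312, 224 of 13149, 303 of 13500 and 160 of 13228 were higher in these fits, in the same order. With all pairs the count was 711 of 13299. Of 13 genes of the antigen receptor arm 2 fell, 0 rose and 11 did not pass, with a median of 0.04. The exchange factor gene Vav1 fell by 0.24 (edgeR adjusted p = 0.00446), and Ube2v1, a ubiquitin-conjugating enzyme variant, fell by 0.21 (edgeR adjusted p = 0.00776).

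Of 11 genes of the non-canonical arm, which include Nfkb2 and Relb, Nfkb2 fell and Birc2, a ubiquitin ligase that limits the kinase NIK, rose by 0.17 (edgeR adjusted p = 0.0498), while 9 did not pass. The Birc2 call held in 2 of 10 alternatives, upper quartile factors and library size only. It was lost with RLE factors, with DESeq2, without the filter, with GC offsets and without each of the 4 pairs, with log2 changes from 0.10 to 0.20 over the 10. Of 12 TNF-family receptor genes 2 fell, 9 missed the threshold and 1 rose, with a median of -0.05. Tnfrsf8 (CD30) fell by 0.35 on the log2 scale and Tnfrsf1b (TNF receptor 2) fell by 0.25, while Tnfrsf9 (4-1BB) rose by 0.20, with edgeR adjusted p values of 0.00405, 0.00379 and 0.0284. Tnfrsf9 averaged 755 ± 258 CPM with formate and 657 ± 236 CPM with PBS (SD, n = 4 each), and its groups overlapped.

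The list of 36 textbook NF-kB target genes, some of which also stand on the other lists, had 34 tested members, of which 7 fell, 6 rose and 21 did not pass. The median was -0.03. Bcl2a1b and Bcl2a1d, anti-apoptotic BCL2 relatives with near-identical sequences, rose by 0.46 and 0.42 (edgeR adjusted p = 0.00156 and 0.00284), and the split of reads between them is uncertain. Sod2, mitochondrial superoxide dismutase, fell by 0.26 (80.1 ± 7.90 CPM with formate and 96.1 ± 8.11 CPM with PBS; SD, n = 4 each; adjusted p = 0.00363). Gadd45b, a stress-response gene, fell by 0.24 (adjusted p = 0.00619). Vcam1 and Bcl2a1a were below the filter on low counts. Over 10 alternatives of the block fit (scalings, filter, DESeq2, GC offsets, each pair left out) 7 of the 17 genes named from the lists kept the call every time: Otulin, Tnfrsf1b, Tnfrsf8, Bcl2a1b, Bcl2a1d, Sod2 and Gadd45b. None of the 17, which include Nfkb2, changed sign in these alternatives. The 17 were picked by smallest p in the block fit of the same libraries, which favours kept calls and signs. The share of all called genes that kept the call was not computed, so these counts do not measure stability. Leaving out codes 1 and 2 left 2 targets that rose and 3 that fell, and 0 calls in the antigen receptor arm. Over all 13228 genes tested in that fit, 160 rose and 177 fell, against 711 and 1000 of 13299 with all pairs.

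**Figure D5:**
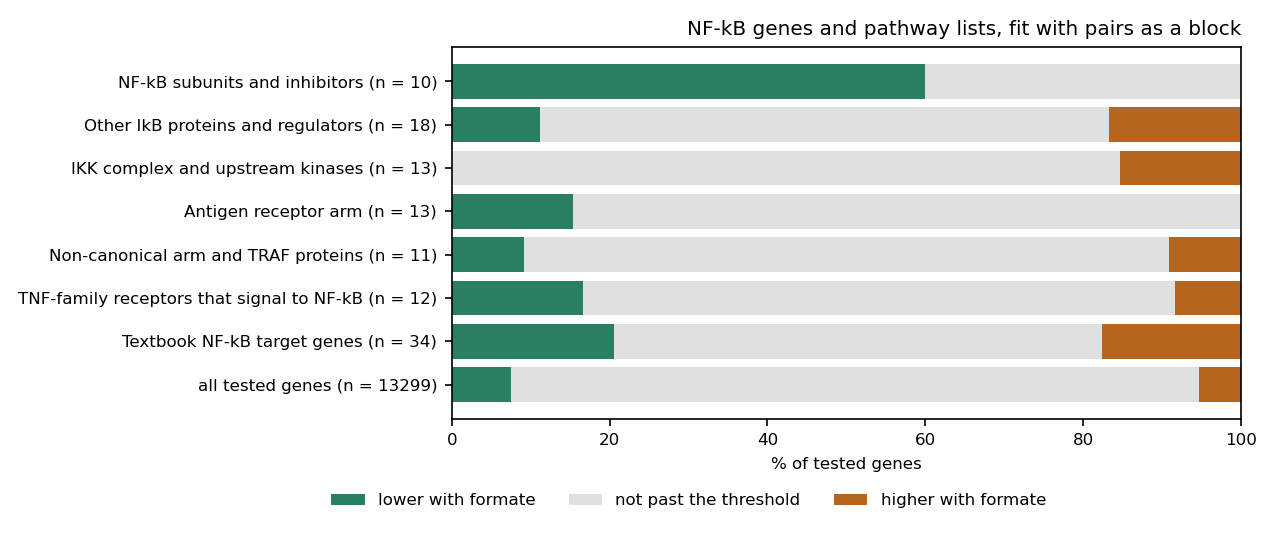
Share of tested genes that were lower, not past the threshold or higher with formate in the block fit (edgeR adjusted p under 0.05), for the NF-kB genes, 6 pathway lists and all tested genes. The NF-kB genes have 6 of 10 lower and 0 higher, while the targets divide into 7 lower and 6 higher of 34.

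Several library-level values moved with the same comparison. Mitochondrially encoded transcripts took 0.906%, 0.725%, 0.618% and 0.560% of counts in formate libraries 1 to 4, against 0.429%, 0.566%, 0.438% and 0.414% in PBS libraries 1 to 4, higher with formate in every pair. The TMM scaling factors were 1.027, 1.013, 1.012 and 0.998 with formate and 0.978, 0.997, 0.998 and 0.978 with PBS. Genes with a count numbered 18402, 18732, 18751 and 18181 with formate and 18344, 18526, 18278 and 17660 with PBS. Both were higher with formate in every pair. The part of mitochondrial transcripts and gene numbers in the NF-kB decreases was not tested, and calls under other scalings are given below. Median transcript GC content was 52.7% for Nfkb1, 52.9% for Nfkbia, 59.2% for Nfkb2 and 60.3% to 60.7% for Nfkbib, Bcl3 and Rela, against 42.5% for Rel, 48.8% for Tnfaip3, 55.9% for Nfkbie and 61.1% for Relb. With a GC trend removed from each library, Nfkb2 (-0.19, edgeR adjusted p = 0.0140) and Bcl3 (-0.19, adjusted p = 0.0245) kept the call, 2 of 10 where 7.62% of all genes were lower. The other 4 missed it, with changes of -0.14 for Nfkb1 and Nfkbib, -0.13 for Nfkbia and -0.10 for Rela and adjusted p values of 0.0844, 0.0587, 0.0592 and 0.129. Leaving out codes 1 and 2 left 0 of the 6 calls, and the share of all genes called lower was 1.34%, against 7.52% with all pairs (Nfkb2 -0.22, adjusted p = 0.0628; Bcl3 -0.23, adjusted p = 0.0638). Leaving out 13 and 14 (2.11% of all genes lower), or 7 and 8 (3.1%), left Nfkb2 and Bcl3, and leaving out 10 and 11 (6.12%) left 5, all but Nfkbia. The split of all block calls also moved with the scaling: 711 genes were higher and 1000 lower with TMM, 832 and 736 with upper quartile factors, and 1048 and 539 with library size only; Nfkb2, Nfkbib and Bcl3 were called lower under all 3.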

How the data were processed

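The authors deposited 1 table of estimated counts (expected counts) per gene, made from the reads and left unnormalised and unpooled, as its values show. The submitters' processing notes name Trimmomatic, MultiQC, kallisto, GRCm38 and mm10 with no role or version. Annotation release and strand setting are not stated there. Values were rounded to whole numbers, and 8884 genes lacking a symbol were kept by identifier. The treatment label gave the groups; replicate numbers follow accession order. Since no label names separate animals or cultures, the p-values reflect only library-to-library spread, possibly technical. No pair of libraries within a group matched within sampling noise (smallest chi-square per degree of freedom 20.3).

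Testing used edgeR 4.0.16 (R 4.3.3) with TMM, filterByExpr and the robust quasi-likelihood test, with Benjamini-Hochberg adjustment over 13299 genes and a threshold of 0.05, first without and then with neighbouring title codes as a block; both fits were planned. The SE is the log2 change divided by the root of the F statistic. The pairing is inferred from the titles: deviations from group means correlated at 0.653 (codes 1 and 2), 0.656 (10 and 11), 0.370 (13 and 14) and 0.369 (7 and 8), and the best non-neighbours reached 0.270 to 0.373. Alternatives were DESeq2 1.42.0, other scalings, no filter, GC offsets (a lowess trend of each library on transcript GC) and left-out libraries. Positions, lengths and GC content come from GENCODE M21 (GRCm38), and upstream sequences from RefSeq (GRCm38.p6).

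The 10 genes and the lists were chosen with earlier results of these data known. 1 gene of the antigen receptor list is not reported here and is left out of its counts. The text names the 10 genes, up to 4 called genes of each list by smallest p, and the 3 genes of most alike pattern to each of the 10.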

Additional observations from a re-analysis of the deposited data

Results flagged for a closer look

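One value stood apart in its group: the mitochondrial share of counts in PBS library 2 was 0.566%, against 0.414% to 0.438% in the other PBS libraries, a gap of 0.84 of the group's range. Of 24 groups of 4 values tested, 1 was marked in this way, and chance marks about 1 in 20. It was not a level of an NF-kB gene.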

How the results depend on the processing

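The unpaired count of 0 of 10 genes stayed 0 under each other scaling, without the low-count filter, with DESeq2, with the code range as a covariate, within either range and without any 1 library (0 to 0). It was 6 with the title codes as replicate block (1000 of 13299 tested genes lower) and 2 with GC offsets and the block (1006 of 13200). The block count of 6 was 6 with RLE factors (1126 of 13299 tested genes lower), without the filter (1361 of 23059) and with DESeq2 (1082 of 13299). It was 0 with no replicate block, where 0 of all tested genes were lower. It was 3 with upper quartile factors (736 of 13299), 3 with library size only (539 of 13299) and 2 with GC offsets (1006 of 13200). Without 1 pair the block count ranged from 0 to 5. Dropping codes 1 and 2 gave 0 genes (1.34% of all genes called lower), dropping 7 and 8 gave 2 (3.1%), dropping 13 and 14 gave 2 (2.11%), and dropping 10 and 11 gave 5 (6.12%), against 7.52% with all pairs. The cause was not tested. Unpaired log2 changes moved with the library left out, for Nfkb2 from -0.46 to -0.01. Rel changed sign, never past the threshold: its unpaired log2 change was -0.012 within codes 1 to 8 and ran from -0.21 to 0.29 without 1 library, and it was -0.053 with GC offsets and the block. Relb had -0.30 without codes 10 and 11 and -0.035 once codes 1 and 2 were dropped. The other 8 genes stayed lower with formate under every alternative run. The lowest count of any of the 10 genes in a library was 328, for Relb.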
